A study of Mus musculus with 7 samples.

Results

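The genes described here are 8 mouse genes of IgG binding and of the signalling that follows it. They are the Fc-gamma receptors Fcgr1, Fcgr2b, Fcgr3 and Fcgr4, the adaptor chain Fcer1g, the neonatal Fc receptor Fcgrt, and the kinases Syk and Lyn. They were taken by symbol from a count table of 57180 genes, where each symbol had 1 row. The RNA came from regulatory T cells (Treg cells) sorted out of B16-F0 melanomas, a transplantable mouse tumour, grown in Foxp3-Cre-YFP mice, whose Treg cells carry YFP and Cre recombinase under the Foxp3 gene. The labels give every sample the genotype WT, and the titles and design text name the tumour-infiltrating Treg cells FOXP3-high (3 samples) or FOXP3-low (4 samples). Both groups share the mouse strain, the reporter and the tumour. Nothing in the sources used here gives the age of the mice, the gates of the sort or whether samples came from separate mice. The p-values therefore rest on the spread between the 7 samples alone, and part of that spread may be technical.

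Fc receptors let cells sense antibody-coated targets. FcγRI, FcγRIII and FcγRIV in mice are activating receptors that rely on a shared signalling chain, FcRγ, the product of Fcer1g, whose cytoplasmic tail carries an immunoreceptor tyrosine-based activation motif (ITAM). Src family kinases such as LYN phosphorylate ITAMs, and the tandem SH2 kinase SYK then docks there and passes the signal on. FcγRIIB, the product of Fcgr2b, carries an inhibitory motif (ITIM) instead and recruits the lipid phosphatase SHIP1. The neonatal receptor FcRn, the product of Fcgrt, pairs with β2-microglobulin and recycles IgG and albumin rather than signalling. Macrophages, monocytes and neutrophils are the best known carriers of the activating set, B cells carry mainly FcγRIIB, and T cells use the SYK relative ZAP-70 and the LYN relative LCK with the CD3 chains in the same positions.

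Library totals were 9048771 to 11202260 counts in FOXP3-high and 12177761 to 14546999 counts in FOXP3-low. Levels are in CPM, the count of a gene per 1000000 counts of TMM-normalized library size, and a mean ± SD covers n = 3 FOXP3-high and n = 4 FOXP3-low libraries. Each log2 fold change sets FOXP3-high over FOXP3-low and carries its SE from edgeR's quasi-likelihood test. Foxp3 followed the labels, with 639 to 808 CPM in FOXP3-high and 310 to 397 CPM in FOXP3-low. T cell markers were present in every library, with the 17 alpha-beta CD4 T cell genes summing to 5034 to 5731 CPM in FOXP3-high and 3830 to 4249 CPM in FOXP3-low. Of these 17 genes 15 were higher in FOXP3-high and 1 was lower by edgeR at an adjusted p under 0.05. Over all genes tested, 21.8% were higher and 24.6% lower. The 2 most abundant of the 17 were Cd2, at 1091 CPM in FOXP3-high and 688 CPM in FOXP3-low, and Thy1. Thy1, the lower one, was at 701 CPM in FOXP3-high and 766 CPM in FOXP3-low, a call that was lost under 9 alternatives. Of 14 Treg markers 10 were higher and 0 lower by the same edgeR test. Ctla4 was at 1596 CPM in FOXP3-high and 979 CPM in FOXP3-low. Il2ra, which did not pass, was at 476 CPM in FOXP3-high and 535 CPM in FOXP3-low. With libraries scaled to the T cell markers, the calls of Tnfrsf18, Tnfrsf4, Tnfrsf9 and Nrp1 were lost. Under that scaling Il2ra (log2 fold change -0.55, edgeR adjusted p = 2.41e-05), Tigit, Ccr8 and Ikzf4 were called lower. Markers of macrophages and monocytes were also present, although the samples are labelled as Treg cells. Among 20 genes that mark macrophages and monocytes, FOXP3-high was lower in 18 and higher in 1, Ccr2, with a median log2 fold change of -4.07 and no gene at 0 counts in either group. Lyz2, the lysozyme of these cells, was at 28.0 CPM in FOXP3-high and 553 CPM in FOXP3-low, and Ctss, the protease cathepsin S, at 245 CPM in FOXP3-high and 834 CPM in FOXP3-low. Their summed level was 791 to 840 CPM in FOXP3-high and 2602 to 3252 CPM in FOXP3-low. Ccr2 and Ctss, which were also abundant in FOXP3-high, made up 82.4% to 89.8% of that sum in FOXP3-high and 35.6% to 36.5% in FOXP3-low. The other 18 genes summed to 85.9 to 142 CPM in FOXP3-high and 1652 to 2086 CPM in FOXP3-low. Adgre1, Trem2, Ms4a7 and Cd163, among the lower genes, lay under 0.821 CPM, the level of the filter on low counts, in at least 1 FOXP3-high library. These genes were tested through their FOXP3-low libraries, which favours a lower call. In such bulk libraries, fewer cells of a type and less RNA per cell cannot be told apart.

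All 8 genes were lower in FOXP3-high at an adjusted p under 0.05, between 2.43-fold for Fcgrt and 33.2-fold for Fcgr1, and in none did the libraries of the groups overlap. Of the 15838 genes tested, 24.6% were lower and 21.8% higher in FOXP3-high by the same test, 46.5% in either direction. Every FOXP3-high library lay below every FOXP3-low library in 26.8% of tested genes and above in 23.9%. The median log2 fold change of the 8 genes was -3.94, against 0.01 over all genes tested. A log2 fold change below -3 with an adjusted p under 0.05, which Fcgr1, Fcgr2b, Fcgr3, Fcgr4, Fcer1g and Syk had, was found in 3.17% of tested genes. All 8 genes passed the filter on low counts, Fcgr1 and Fcgr4 through their FOXP3-low libraries, since each lay under the filter level of 0.821 CPM in at least 1 FOXP3-high library. Their place in the test thus came from the group in which they were high, which favours a lower call. Both are counted in the values above, and the other 6 genes reached that level in every FOXP3-high library. The macrophage marker sum was lower in FOXP3-high in the same direction. Its part in these differences was not tested.

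**Figure D1:**
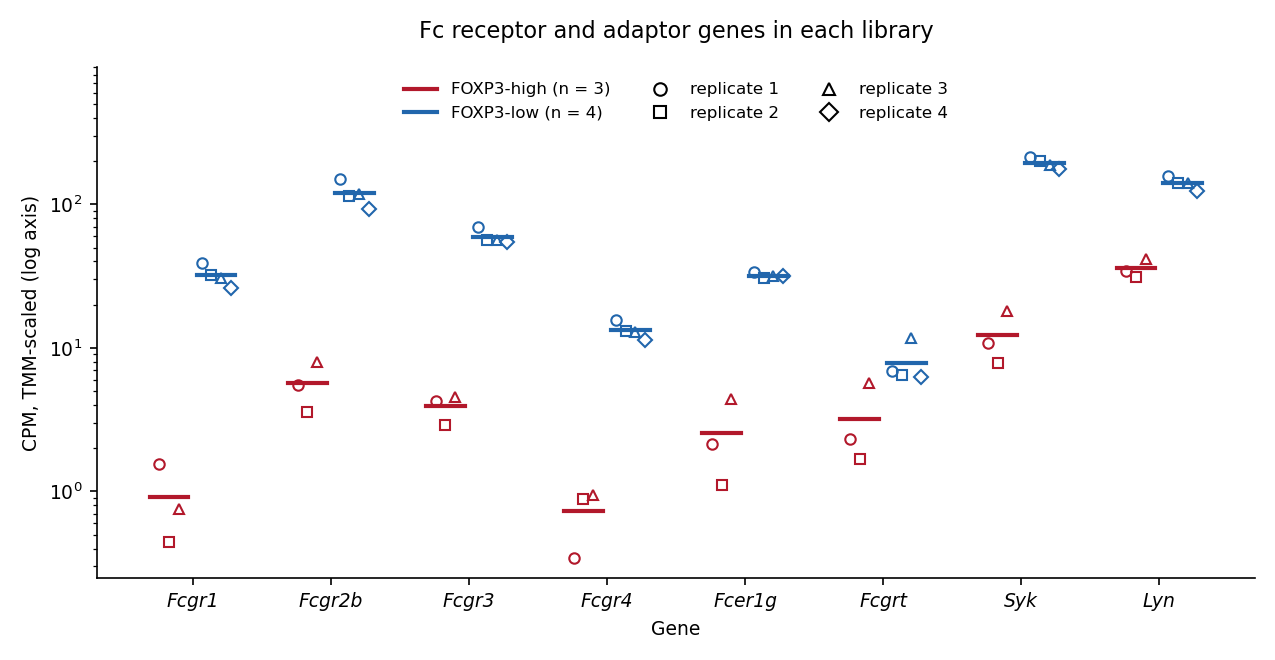
CPM of each of the 8 genes on a log axis, with 1 symbol per library (its shape gives the replicate number) and bars at the group means, FOXP3-high in red and FOXP3-low in blue. Every FOXP3-high library lies below every FOXP3-low library for each gene, with the narrowest gap for Fcgrt.

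Among the activating receptors, Fcgr1 (chromosome 3, 96190225 to 96201249, minus strand; coordinates are those of the deposited table, in GRCm39, the mouse build of the processing notes), which encodes the high-affinity IgG receptor CD64, showed the widest separation. It had 1.55, 0.445 and 0.755 CPM in FOXP3-high, resting on 18, 4 and 8 counts, against 39.0, 32.0, 30.9 and 26.0 CPM in FOXP3-low. The lowest FOXP3-low library held 16.8 times the level of the highest FOXP3-high library. The log2 fold change of Fcgr1 was -5.05 ± 0.29 (edgeR adjusted p = 1.23e-06), the 76th largest decrease among all genes tested, and moved to -5.71 without FOXP3-high replicate 1. Fcgr3 (chromosome 1, 170878743 to 170892504, minus strand), the low-affinity activating receptor CD16, had 4.30, 2.89 and 4.53 CPM in FOXP3-high, against 70.0, 56.5, 56.4 and 54.4 CPM in FOXP3-low. FOXP3-low replicate 1 stood above the other 3 of its group and FOXP3-high replicate 2 was the lowest of its own, without overlap between the groups, and the log2 fold change of Fcgr3 was -3.91 ± 0.16 (edgeR adjusted p = 2.37e-07). Fcgr4 (chromosome 1, 170846489 to 170857330, plus strand), a mouse receptor for IgG2 subclasses, had 0.344, 0.891 and 0.944 CPM in FOXP3-high, or 4, 8 and 10 counts, against 15.6, 13.2, 12.8 and 11.3 CPM in FOXP3-low. With so few counts in FOXP3-high its level there is known only coarsely, and its log2 fold change was -4.20 ± 0.29 (edgeR adjusted p = 3.70e-06).

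The inhibitory receptor gene Fcgr2b (chromosome 1, 170786186 to 170804116, minus strand) was the most abundant of the 4 receptors in CPM. It had 5.50, 3.56 and 7.93 CPM in FOXP3-high, against 151, 115, 118 and 92.7 CPM in FOXP3-low. The groups lay far apart, and the log2 fold change of -4.38 ± 0.25 (edgeR adjusted p = 1.26e-06) was close to those of the activating receptors. Fcgr2b and Fcgr3 encode closely similar extracellular parts, and no source used here states how the counting treated reads that match both genes, so the split between these 2 genes is uncertain. Gene models that overlap the 8 genes held few counts, at most 37 over all libraries against 6243 for Fcgr2b itself.

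Fcgr2b, Fcgr4, Fcgr3 and Fcer1g lie within 275749 bases of chromosome 1. Of the 17 genes that the table places in this interval, 8 were tested and 5 were lower in FOXP3-high. Over all genes tested 24.6% were lower, and 4 of these 5 are the Fc receptor and adaptor genes by which the interval was chosen. The fifth, Sdhc, a subunit of mitochondrial complex II, was at 18.0 ± 1.28 CPM in FOXP3-high and 23.3 ± 1.43 CPM in FOXP3-low (log2 fold change -0.37 ± 0.091, edgeR adjusted p = 0.0079). The genes Nr1i3, Tomm40l and Apoa2, between Sdhc and Fcer1g, did not pass, with log2 fold changes of -0.27, -0.32 and 0.21 and edgeR adjusted p-values of 0.34, 0.15 and 0.25. The decreases beyond a log2 fold change of -3 in this interval were those of the 4 Fc receptor and adaptor genes.

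Promoters of 7 of the 8 genes were matched by symbol in RefSeq sequence (build GRCm38.p6). The windows below hold the 250 bases before the annotated start site of the 4 Fc-gamma receptors and of the chain that the activating ones share, since the comparisons among receptors turn on these genes. Capitals mark matches to GAGGAA, the core letters bound by the myeloid factor PU.1, or to its reverse complement TTCCTC, both strands having been searched.
Fcgr1 promoter (chr3:96293970-96294219, minus strand): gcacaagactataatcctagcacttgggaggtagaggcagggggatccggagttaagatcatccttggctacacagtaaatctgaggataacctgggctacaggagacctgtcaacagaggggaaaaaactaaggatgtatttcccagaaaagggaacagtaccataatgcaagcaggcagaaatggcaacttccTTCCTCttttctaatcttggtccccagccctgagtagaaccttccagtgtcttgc
Fcgr3 promoter (chr1:171059404-171059653, minus strand): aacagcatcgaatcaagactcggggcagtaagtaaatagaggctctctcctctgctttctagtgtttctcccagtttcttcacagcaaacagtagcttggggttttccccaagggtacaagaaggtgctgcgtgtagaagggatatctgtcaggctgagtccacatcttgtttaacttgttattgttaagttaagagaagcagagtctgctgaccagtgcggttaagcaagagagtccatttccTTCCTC
Fcgr4 promoter (chr1:171018676-171018925, plus strand): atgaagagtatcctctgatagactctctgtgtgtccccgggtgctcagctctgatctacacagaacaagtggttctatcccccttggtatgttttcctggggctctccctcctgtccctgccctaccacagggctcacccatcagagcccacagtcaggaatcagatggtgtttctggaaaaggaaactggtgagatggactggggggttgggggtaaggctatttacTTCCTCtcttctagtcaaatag
Fcgr2b promoter (chr1:170976072-170976321, minus strand): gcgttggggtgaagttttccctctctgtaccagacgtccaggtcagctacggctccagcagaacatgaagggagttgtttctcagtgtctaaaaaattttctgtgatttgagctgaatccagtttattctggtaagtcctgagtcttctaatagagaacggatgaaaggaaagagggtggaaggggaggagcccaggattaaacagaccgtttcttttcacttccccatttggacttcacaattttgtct
Fcer1g promoter (chr1:171234350-171234599, minus strand): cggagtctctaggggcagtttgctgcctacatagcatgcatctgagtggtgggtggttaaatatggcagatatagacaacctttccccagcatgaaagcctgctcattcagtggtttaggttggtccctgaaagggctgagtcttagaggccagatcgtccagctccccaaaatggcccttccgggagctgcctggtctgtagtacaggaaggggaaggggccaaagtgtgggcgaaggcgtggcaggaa
Each of the 3 activating receptor windows holds the letters once, starting 55 bases before the start site in Fcgr1, 6 bases before it in Fcgr3 and 22 bases before it in Fcgr4. The Fcgr2b and Fcer1g windows hold none. Over the 7 genes, 4 had a match in at least 1 window, the further one being Syk at its second start site. Of all 32851 promoter windows of the same length, 23.3% hold these letters, so a match is common. The longer GAGGAAGT, which contains GAGGAA, was found in the Fcgr4 window and in 2.44% of all windows. The forkhead letters TGTTTAC, searched in the same way, were found in 1 of the 7 genes, Fcgrt, and in 3.17% of all windows. GGGCGG, the GC box, was found in 0 of the 7 genes and in 32.7% of all windows. These matches are descriptions of the letters and say nothing about binding in these cells.

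To compare levels between genes, CPM was divided by the deposited gene length in kilobases. Per length, the order in FOXP3-low was Fcer1g (36.5 ± 1.42), Lyn (34.6 ± 3.21), Fcgr3 (34.2 ± 4.12), Syk (20.8 ± 1.67), Fcgr2b (20.6 ± 4.18), Fcgr1 (12.4 ± 2.07), Fcgr4 (10.5 ± 1.42) and Fcgrt (3.73 ± 1.25 CPM per kilobase, SD, n = 4). Neighbours in that order overlapped between libraries except Fcgr3 with Syk, Fcgr2b with Fcgr1, and Fcgr4 with Fcgrt. In FOXP3-high Lyn stood alone at the top, at 8.80 ± 1.30 CPM per kilobase, and each of the other 7 overlapped its neighbour, down to Fcgr1 at 0.354 ± 0.220 CPM per kilobase (SD, n = 3). Fcgrt, the lowest of the 8 in FOXP3-low, took the fourth place in FOXP3-high at 1.53 ± 1.02 CPM per kilobase.

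The mix of the 4 Fc-gamma receptors per length was nearly fixed among FOXP3-low libraries and looser in FOXP3-high. Fcgr3 made up 52.0% to 57.6% of the 4 receptors in FOXP3-high libraries and 42.9% to 47.2% in FOXP3-low. Fcgr1 made up 5.44% to 13.9% in FOXP3-high and 15.1% to 16.4% in FOXP3-low, so that neither of these ranges overlapped. The shares of Fcgr2b and Fcgr4 overlapped between the groups, and the share of Fcgr4 in FOXP3-high, 6.37% to 22.4%, rests on 4 to 10 counts a library. That of Fcgr1 in FOXP3-high rests on 18, 4 and 8 counts, against 480, 393, 441 and 311 in FOXP3-low. The part of counting noise in the looser mix was not tested.

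**Figure D2:**
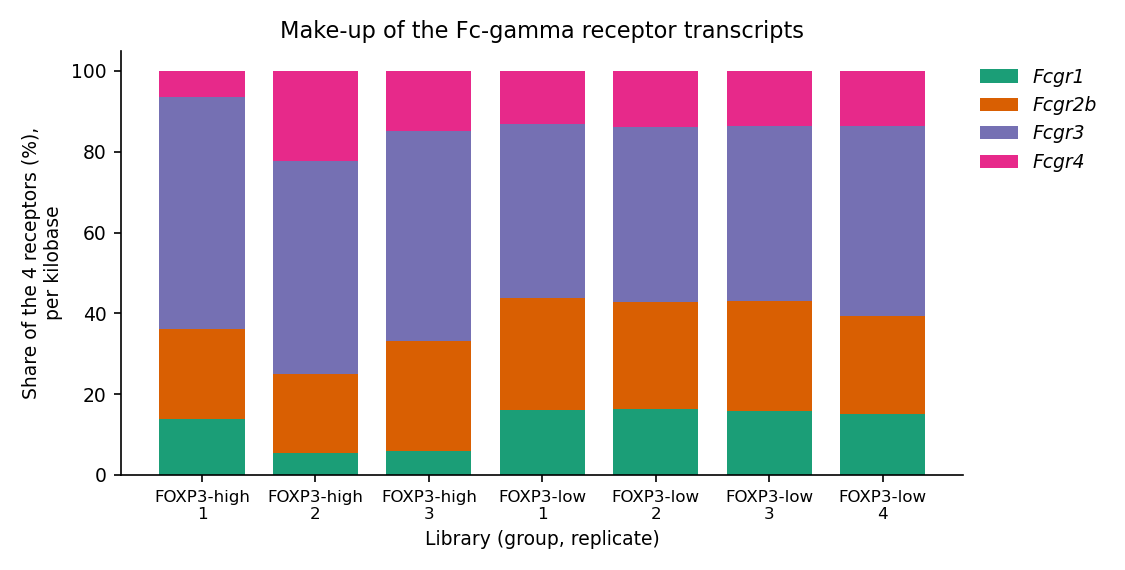
Share of each Fc-gamma receptor gene in the sum of the 4, from values per kilobase, in each library (bars sum to 100%). Fcgr3 takes the largest share in every library, and the 4 FOXP3-low libraries are nearly alike.

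Whether the activating and inhibitory arms changed in proportion was read from ratios within each library, which do not depend on library scaling. The summed activating receptors stood to Fcgr2b at 3.52, 4.14 and 2.67 in FOXP3-high, against 2.59, 2.80, 2.68 and 3.15 in FOXP3-low. The groups overlapped, and the log2 ratio differed by 0.28 (1.76 ± 0.32 in FOXP3-high and 1.48 ± 0.12 in FOXP3-low, two-sided exact permutation test p = 0.23, adjusted p = 0.29 over the 9 ratios computed). The ratio of Fcgr1 to Fcgr3 was 0.241, 0.103 and 0.112 in FOXP3-high and 0.374, 0.379, 0.367 and 0.321 in FOXP3-low, a log2 difference of -1.35. These libraries did not overlap, yet with 3 against 4 samples a two-sided exact permutation test cannot go below 0.0571, which is the value it gave (adjusted p = 0.10). Fcgr3 over Fcgr2b (log2 difference 0.50, exact permutation p = 0.11), Fcgr4 over Fcgr3 (-0.37, p = 0.69) and Fcer1g over the summed activating receptors (0.31, p = 0.57) overlapped between the groups. The last 2 differences changed sign when 1 FOXP3-high library was left out, to 0.19 without replicate 1 for Fcgr4 over Fcgr3 and to -0.087 without replicate 3 for Fcer1g over the activating receptors.

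Fcer1g (chromosome 1, 171057141 to 171061934, minus strand), the chain that the activating receptors share, was the most even of the 8 genes in FOXP3-low and among the least even in FOXP3-high. It had 2.15, 1.11 and 4.44 CPM in FOXP3-high, from 25, 10 and 47 counts, against 33.7, 30.9, 31.5 and 31.5 CPM in FOXP3-low. The coefficient of variation was 66.2% in FOXP3-high and 3.88% in FOXP3-low, and the log2 fold change was -3.61 ± 0.30 (edgeR adjusted p = 1.13e-05), or -4.24 without FOXP3-high replicate 3. FOXP3-high replicate 3 was the highest of its group for 7 of the 8 genes and replicate 2 the lowest for 7. In FOXP3-low, replicate 1 was the highest and replicate 4 the lowest for 7 genes each. The macrophage marker sum was likewise highest in FOXP3-low replicate 1, at 3252 CPM, and lowest in replicate 4, at 2602 CPM. In FOXP3-high that sum ran otherwise, at 791, 840 and 806 CPM in replicates 1 to 3, so that replicate 2 was the highest, whereas the sum without Ccr2 and Ctss, at 123, 85.9 and 142 CPM, was highest in replicate 3. The part of these markers in the order of the libraries was not tested.

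Fcgrt (chromosome 7, 44742414 to 44753275, minus strand) stood apart from the signalling receptors. It had 2.32, 1.67 and 5.66 CPM in FOXP3-high, against 6.91, 6.43, 11.8 and 6.27 CPM in FOXP3-low, so the closest libraries differed only 1.11-fold. The libraries numbered 3 were the highest of both groups. The log2 fold change was -1.28 ± 0.41 (edgeR adjusted p = 0.028). Endothelial and fibroblast markers, 10 genes of which 0 passed the edgeR test, summed to 359, 91.2 and 607 CPM in FOXP3-high and to 142, 178, 709 and 173 CPM in FOXP3-low, and were thus also highest in the libraries numbered 3. The 2 most abundant were Pecam1, at 106 CPM in FOXP3-high and 74.8 CPM in FOXP3-low, and Col3a1, at 78.1 CPM in FOXP3-high and 80.5 CPM in FOXP3-low. Their part in the Fcgrt result was not tested. Without both libraries numbered 3, an alternative added after the data were seen, the log2 fold change of Fcgrt was -1.69 (edgeR adjusted p = 7.34e-04). The call was lost without FOXP3-high replicate 1 (log2 fold change -1.10, adjusted p = 0.10), without FOXP3-high replicate 2 (-0.96, adjusted p = 0.083) and without FOXP3-low replicate 3 (-1.02, adjusted p = 0.057), all by edgeR, and the fold change moved to -1.96 without FOXP3-high replicate 3 (edgeR adjusted p = 0.0020). B2m, which encodes the light chain of FcRn, was at 421 ± 9.23 CPM in FOXP3-high and 366 ± 13.1 CPM in FOXP3-low (log2 fold change 0.20, edgeR adjusted p = 0.0043), a direction that turned to -0.18 when libraries were scaled to the T cell markers.

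The kinases differed from each other in how much was left in FOXP3-high. Syk (chromosome 13, 52737209 to 52802818, plus strand) had 10.8, 7.90 and 18.1 CPM in FOXP3-high, against 213, 201, 189 and 176 CPM in FOXP3-low (log2 fold change -3.98 ± 0.23, edgeR adjusted p = 1.16e-06). Its FOXP3-low libraries exceeded the highest FOXP3-high library at least 9.74-fold. Lyn (chromosome 4, 3678115 to 3813122, plus strand) had 34.6, 31.3 and 41.6 CPM in FOXP3-high, against 156, 140, 142 and 124 CPM in FOXP3-low. Its decrease was smaller, with a log2 fold change of -1.97 ± 0.11 (edgeR adjusted p = 1.10e-06). Lyn kept 1124 counts over the FOXP3-high libraries, more than the other 7 genes together.

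The T cell relatives of both kinases are ZAP-70 and LCK. Zap70 was at 192 ± 12.3 CPM in FOXP3-high and 167 ± 18.4 CPM in FOXP3-low (log2 fold change 0.20 ± 0.09, edgeR adjusted p = 0.088; -0.18 with T cell scaling, adjusted p = 0.045). Lck was at 338 ± 29.8 CPM in FOXP3-high and 276 ± 12.2 CPM in FOXP3-low (0.30 ± 0.06, edgeR adjusted p = 0.0042), a direction that turned to -0.090 with T cell scaling. Per length, Syk stood to Zap70 at 0.019, 0.012 and 0.031 in FOXP3-high and at 0.387, 0.358, 0.433 and 0.326 in FOXP3-low. The log2 ratio of Syk to Zap70 differed by -4.28 and that of Lyn to Lck by -2.27, without overlap between the groups (two-sided exact permutation test p = 0.0571 for each, the smallest it can give, adjusted p = 0.10). Fcer1g against Cd3e, the ITAM chains of the Fc and T cell receptors, gave a log2 difference of -4.25 with the same p.

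Set against the macrophage and monocyte markers, the 8 genes held different places. The log2 fold change of Fcgr1 was below that of 18 of the 20 markers, those of Fcgr2b, Fcgr4, Fcgr3, Syk and Fcer1g lay among them with 8 to 15 markers above, and those of Lyn and Fcgrt were above all but 3 and 2. Relative to the summed 20 markers of the same library, Fcgr1 differed by -3.44, Syk by -2.22 and Fcgr3 by -2.09 on the log2 scale (two-sided exact permutation test p = 0.0571 for each, adjusted p = 0.076 over the 8 genes). Lyn differed by -0.12 (exact permutation p = 0.40, adjusted p = 0.46) and Fcgrt by 0.42 (p = 0.51, adjusted p = 0.51), and both overlapped between the groups. That sum was mostly Ccr2 and Ctss in FOXP3-high, and with the mean of the markers' log2 CPM in its place the differences were -0.47 for Syk, -0.26 for Fcer1g, 1.62 for Lyn and 2.17 for Fcgrt. Against the sum of the other 18 markers, which were kept after their values were seen and are therefore given without a test, Fcgr3 differed by 0.09, Syk by -0.03, Fcer1g by 0.18, Fcgr4 by -0.28 and Fcgr2b by -0.41 on the log2 scale. Fcgr1 stood at -1.26 on the same scale, and Lyn at 2.06 and Fcgrt at 2.60.

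**Figure D3:**
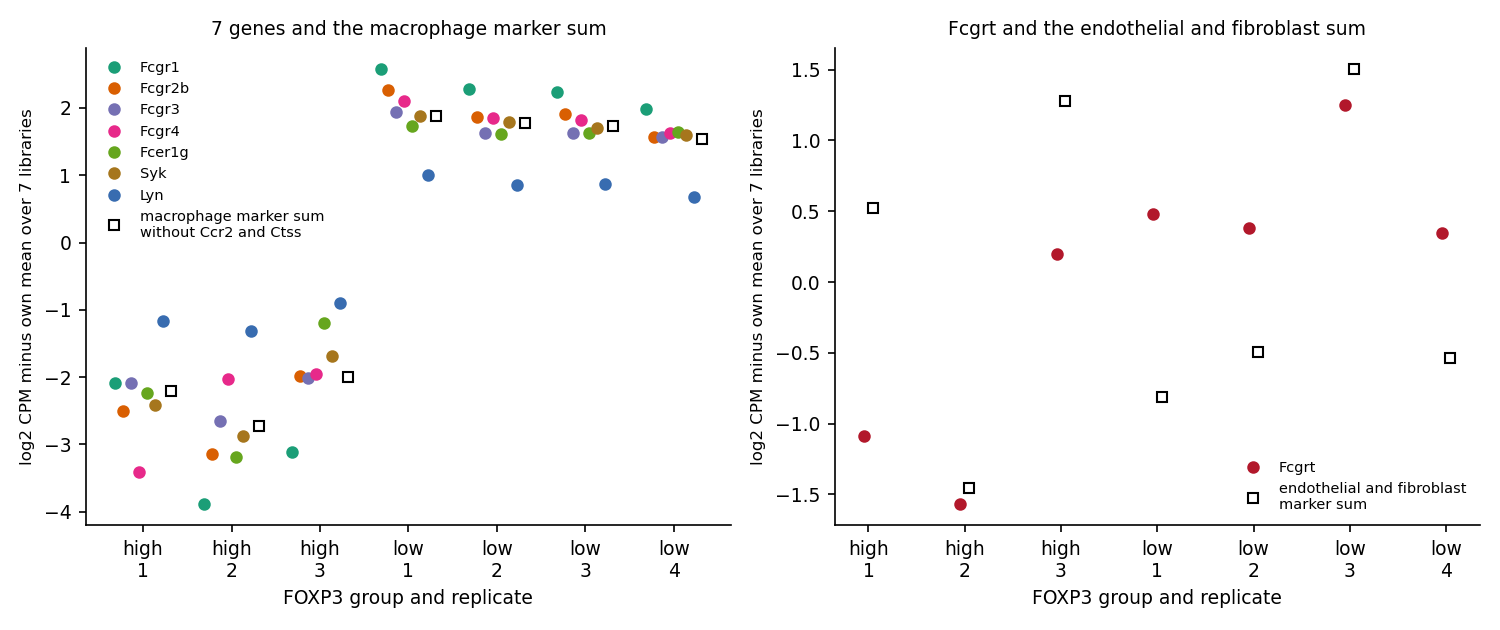
Left, log2 CPM of 7 genes and of 18 macrophage and monocyte markers summed (Ccr2 and Ctss left out), each minus its own mean over the 7 libraries. Right, the same for Fcgrt and the summed endothelial and fibroblast markers, both of which are highest in the libraries numbered 3 of each group.

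Neutrophils and dendritic cells also carry Fc receptors, and most of their tested markers were lower in FOXP3-high too. Over all genes tested, 24.6% were lower. Of 6 tested neutrophil genes 5 were lower, and the 10 genes of that list summed to 39.4 to 90.2 CPM in FOXP3-high and 688 to 930 CPM in FOXP3-low. Ly6g had 0 counts in FOXP3-high and 20 counts in FOXP3-low, while Mpo, Elane and Camp, also at 0 in FOXP3-high, were found in FOXP3-low replicate 3 alone, with 19, 8 and 1 counts. S100a9, a calcium-binding protein of neutrophils, was at 39.9 CPM in FOXP3-high and 645 CPM in FOXP3-low, and Csf3r, their growth factor receptor, at 4.86 CPM in FOXP3-high and 105 CPM in FOXP3-low. Of 10 dendritic cell genes 9 were lower, with sums of 33.4 to 44.7 CPM in FOXP3-high and 94.9 to 133 CPM in FOXP3-low. Most of the FOXP3-high sum was Zbtb46, and the median log2 fold change of the list was -2.82. Itgax, the integrin CD11c, was at 2.68 CPM in FOXP3-high and 32.0 CPM in FOXP3-low, and Zbtb46, a transcription factor of dendritic cells, at 24.1 CPM in FOXP3-high and 28.9 CPM in FOXP3-low (log2 fold change -0.26, edgeR adjusted p = 0.027), a call that was lost under 9 alternatives, among them total counts and DESeq2. Of 7 tested B and plasma cell genes 4 were lower, with sums of 94.5 to 125 CPM in FOXP3-high and 401 to 533 CPM in FOXP3-low, Igkc at 16.9 CPM in FOXP3-high and 241 CPM in FOXP3-low, and Ighm at 82.8 CPM in FOXP3-high and 169 CPM in FOXP3-low. The 4 lower genes were Jchain, Igkc, Ighm and Mzb1. The B cell genes Cd79a, Cd79b and Cd22 did not pass (edgeR adjusted p = 0.38, 0.33 and 0.52). The B cell surface gene Ms4a1 had 2 counts over the FOXP3-high libraries and 15 counts over the FOXP3-low libraries. It was too low to be tested, and its libraries overlapped between the groups. NK cell genes, 3 of 6 lower (for 1 of them, Klre1, with an edgeR adjusted p of 0.041 that was lost under 14 alternatives, among them total counts, DESeq2 and limma-voom), summed to 26.9 to 40.0 CPM in FOXP3-high and 53.5 to 70.6 CPM in FOXP3-low, led by Prf1 at 9.34 CPM in FOXP3-high and 22.8 CPM in FOXP3-low and Klrk1, which did not pass, at 15.4 CPM in FOXP3-high and 21.2 CPM in FOXP3-low. Among the lower genes, Cxcr2, Retnlg, Flt3, Clec9a, Batf3, Cd209a, Siglech, Ccl22 and Mzb1 lay under the filter level of 0.821 CPM in at least 1 FOXP3-high library. Their place in the test came from their FOXP3-low libraries, which favours a lower call. The part of any of these cell types in the Fc receptor results was not tested.

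Other Fc receptors and immunoglobulin-binding proteins were mostly at or near the detection limit. Of the 14 genes listed, 7 were tested, 2 were lower and 2 higher in FOXP3-high, and the median log2 fold change was 0.10. The shares over all genes tested were 24.6% lower and 21.8% higher. Fcer1a, the IgE-binding chain of mast cells and basophils, had 0 counts in every library. Its partner Ms4a2 had 0 counts in FOXP3-high and 4 in FOXP3-low. Of the 9 mast cell and basophil markers a single gene was tested, Kit. It was at 13.6 CPM in FOXP3-high and 14.6 CPM in FOXP3-low and did not pass. Gata2 was at 0.478 CPM in FOXP3-high and 0.713 CPM in FOXP3-low. The untested markers Mcpt4, Cma1, Tpsb2 and Cpa3 had 1, 1, 0 and 0 counts over the FOXP3-high libraries. Over the FOXP3-low libraries they had 32, 28, 18 and 8 counts, all in replicate 3. Fcrlb, an intracellular Fc receptor-like protein, had 0 counts in FOXP3-high and 128 counts in FOXP3-low, at least 26.2-fold lower when 3 counts over the group are taken as the floor (edgeR adjusted p = 6.57e-04). At that bound Fcrlb is still the lowest of the 7, so the median of the list is 0.10 by construction. Its relative Fcrla had 2 counts in FOXP3-high and 54 in FOXP3-low (edgeR adjusted p = 0.0047), a call that was lost without FOXP3-low replicate 1, 3 or 4. Both genes lay under the filter level of 0.821 CPM in every FOXP3-high library and were tested through their FOXP3-low libraries, so that they could be called only as lower. Fcrla overlaps Gm2962 on the same strand, which held 46.4% as many counts. Trim21, a cytosolic Fc receptor and ubiquitin ligase, was higher, at 134 ± 8.69 CPM in FOXP3-high and 84.6 ± 7.07 CPM in FOXP3-low (log2 fold change 0.66 ± 0.08, edgeR adjusted p = 8.33e-05), and the T cell markers were higher as well.

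Other ITAM adaptors and Src family kinases differed in both directions, as did all genes tested, of which 24.6% were lower and 21.8% higher in FOXP3-high. Of 7 ITAM adaptors, 1 was lower and 4 were higher in FOXP3-high, with a median log2 fold change of 0.23. The lower one was Tyrobp, the myeloid and NK adaptor DAP12, at 2.36 ± 1.06 CPM in FOXP3-high and 24.5 ± 3.95 CPM in FOXP3-low (log2 fold change -3.38 ± 0.27, edgeR adjusted p = 8.31e-06). The higher ones were the CD3 chains Cd3d, Cd3e, Cd3g and Cd247, with log2 fold changes of 0.23 to 0.46 that came to -0.15 to 0.07 with T cell scaling, an alternative that uses these 4 genes themselves. The call of Cd3g (edgeR adjusted p = 0.032) was lost without FOXP3-high replicate 1 or 2 and without FOXP3-low replicate 1 or 3. Cd247 overlaps Pou2f1 on the opposite strand, which held 19.4% as many counts. Of 7 tested kinases, 2 were lower and 3 higher. Fgr, a Src family kinase of myeloid cells, was at 4.14 ± 1.01 CPM in FOXP3-high and 45.5 ± 5.58 CPM in FOXP3-low (log2 fold change -3.45, edgeR adjusted p = 5.24e-07). Src itself was higher, at 24.1 ± 2.82 CPM in FOXP3-high and 9.29 ± 0.834 CPM in FOXP3-low (log2 fold change 1.38 ± 0.12, edgeR adjusted p = 1.28e-05), in the direction of the melanoma markers, 10 of 10 higher, which summed to 3408 to 4685 CPM in FOXP3-high and 1403 to 2514 CPM in FOXP3-low with Dct at 3061 CPM in FOXP3-high and 1476 CPM in FOXP3-low and Tyrp1 at 419 CPM in FOXP3-high and 189 CPM in FOXP3-low.

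Downstream of SYK the list had 19 lower and 7 higher genes among 34, with a median log2 fold change of -0.41. Over all genes tested the shares were 24.6% lower and 21.8% higher. Blnk, among the lower genes, lay under the filter level of 0.821 CPM in every FOXP3-high library and was tested through FOXP3-low. Plcg2, the phospholipase of myeloid and B cells, was at 5.53 ± 2.01 CPM in FOXP3-high and 76.6 ± 11.7 CPM in FOXP3-low (log2 fold change -3.78, edgeR adjusted p = 1.41e-06). Its T cell relative Plcg1, named after its values were seen, was at 661 ± 50.8 CPM in FOXP3-high and 384 ± 30.4 CPM in FOXP3-low (0.79, adjusted p = 1.99e-05). Pik3ap1, the adaptor BCAP that links receptors to PI3 kinase, was at 34.1 ± 4.22 CPM in FOXP3-high and 229 ± 17.9 CPM in FOXP3-low (log2 fold change -2.74, edgeR adjusted p = 1.23e-07). Cybb, the catalytic subunit of the phagocyte oxidase, was at 45.8 ± 10.9 CPM in FOXP3-high and 309 ± 38.8 CPM in FOXP3-low (log2 fold change -2.75, edgeR adjusted p = 1.24e-06). The macrophage marker sum was lower in FOXP3-high as well, and its part in these values was not tested.

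Inhibitors of this signalling gave 10 lower and 4 higher genes of 20, with a median log2 fold change of -0.19. All genes tested gave 24.6% lower and 21.8% higher. Dok3 and Cd300a, among the lower genes, lay under the filter level of 0.821 CPM in at least 1 FOXP3-high library. Both were tested through their FOXP3-low libraries, which favours a lower call. Pirb and Cd300lf, inhibitory receptors of myeloid cells, were at 6.15 ± 2.93 and 12.2 ± 5.84 CPM in FOXP3-high and at 121 ± 12.9 and 217 ± 23.7 CPM in FOXP3-low (log2 fold changes -4.27 and -4.14, edgeR adjusted p = 1.78e-06 and 2.25e-06). Sirpa, the receptor for CD47, had a log2 fold change of -2.50 and Ptpn6, the phosphatase SHP-1, one of -1.31 (edgeR adjusted p = 2.22e-06 and 1.04e-06). Cd300lf overlaps Rab37 on the opposite strand, which held 10.4% as many counts. Inpp5d, the phosphatase SHIP1 that FcγRIIB recruits, named after its values were seen, was at 143 ± 12.7 CPM in FOXP3-high and 128 ± 7.19 CPM in FOXP3-low. It did not pass (log2 fold change 0.16 ± 0.07, edgeR adjusted p = 0.099). With T cell scaling its log2 fold change turned to -0.23 (edgeR adjusted p = 0.013). The lower genes changed in the direction of the macrophage markers, whose part was not tested.

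**Figure D4:**
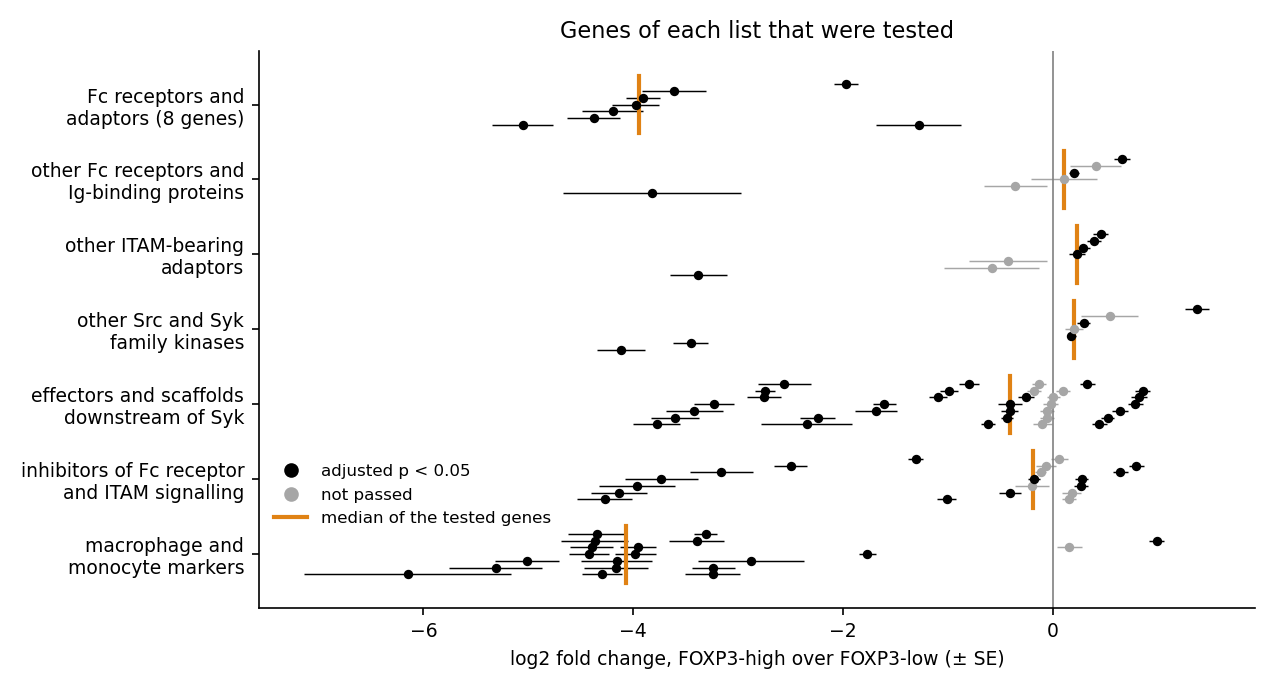
Log2 fold change ± SE of each tested gene, FOXP3-high over FOXP3-low, for the 8 Fc receptor and adaptor genes and for 6 gene lists, with genes past an adjusted p of 0.05 in black and list medians in orange. The 8 genes and the macrophage and monocyte markers lie mostly near -4, while the other lists spread on both sides of 0; Fcrlb, with 0 counts in FOXP3-high, is not drawn.

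Genes with the most similar profiles over the 7 libraries were found by the root mean square difference of log2(CPM + 1), each gene centred on its own mean, among genes of at least 5 CPM on average. Fcgr3 lay closest to Spi1, which encodes PU.1 (0.081), then to Mcemp1. Fcgr2b lay closest to Clec7a, the β-glucan receptor (0.12), H2-Ab1 and Lyz2, and Fcgr1 to Arg1, arginase 1 (0.16), Hk3 and H2-Eb1. Fcgr4 lay closest to Tlr2 (0.10), Fgr and Ccl4, and Fcer1g to Spon1 (0.11), Gda and Ms4a6d. Syk lay closest to Tnfaip2 (0.095), Trim30b and Alox5ap, the last of which overlaps Gm19719 on the opposite strand. Lyn lay closest to the interferon-stimulated genes Oasl2 (0.044) and Rsad2 (0.068), then to Psap, which encodes saposins. Oasl2 was at 27.2 ± 2.87 CPM in FOXP3-high and 109 ± 8.83 CPM in FOXP3-low. Fcgrt lay closest to Zcchc24 (0.18), Pparg and Hbegf. With 7 libraries in separate groups, this measure is set largely by the size of the group difference on the log2(CPM + 1) scale. That scale shrinks the difference for genes near or below 1 CPM in FOXP3-high, such as Fcgr1 and Fcgr4. The log2 fold change was -4.20 for Fcgr4 and -3.63 for its neighbour Tlr2, and -5.05 for Fcgr1 and -4.35 for its neighbour Arg1.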

How the data were processed

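RNA of 7 sorted Treg samples was measured as stranded mRNA libraries, per the labels' protocols. The authors deposited whole-number counts per gene, with no normalization, and a gene length in bases. The builds GRCm39 and GRCh38 and the tools featureCounts, STAR 2.5.3a and fastp 0.23.4 are named, with no order or role, per the submitters' processing notes. No source used here states a strand setting for the counting. Groups and replicate numbers came from the titles, and 0 columns of sample values were unmapped. Replicates differed by more than counting noise (chi-square per gene 3.98 to 12.2).

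The deposited counts went into edgeR 4.0.16 (R 4.3.3) with filterByExpr defaults (minimum count 10, total 15), TMM, and the quasi-likelihood test, FOXP3-high over FOXP3-low, with Benjamini-Hochberg adjustment over 15838 genes at 0.05. Ratios used exact permutation tests over the 35 assignments of samples (SciPy 1.17.1). The T cell scaling used the summed counts of 17 T cell markers, and the alternatives included DESeq2 1.42.0 and limma 3.58.1. The replicate numbers were not taken as pairs after the check given at the end, which cannot exclude pairing.

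The 8 genes and the 15 gene lists (200 entries, 199 matched by symbol and 1 by gene ID) were chosen with earlier results of these data known. Genes named from a list are up to 4 with the smallest adjusted p under 0.05 (the 2 most abundant where none passed, or in a marker list). Profile neighbours are the 3 nearest, predicted genes left out. Overlapping gene models are named where they held at least 10% as many counts. Some genes that these rules name are not reported here. Plcg1, Inpp5d and the sum without Ccr2 and Ctss were chosen after their values were seen and are so marked. Some other genes outside these rules, such as Ms4a1, Ly6g, Klre1, Cd3g and Fcer1a, are named without such a mark. They should not be read as picked by a rule.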

Additional observations from a re-analysis of the deposited data

Results flagged for a closer look

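Of 35 sets of 4 FOXP3-low values checked, 5 had a library far from the others by Dixon's test, where chance gives about 1 in 20. Fcgr3 was at 70.0 CPM in FOXP3-low replicate 1 and 54.4 to 56.5 CPM in the other 3. Fcgrt was at 11.8 CPM in FOXP3-low replicate 3 and 6.27 to 6.91 CPM in the others, and its log2 ratio to B2m was -6.17 there and -7.20 to -7.02 in the others. Summed endothelial and fibroblast markers were at 709 CPM in the same FOXP3-low replicate 3 and at 142 to 178 CPM in the others. Fcgr4 over the macrophage marker sum, on the log2 scale, was -7.70 in FOXP3-low replicate 1 and -7.85 to -7.83 in the others.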

How the results depend on the processing

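All 8 genes were lower in FOXP3-high under every alternative fit run, and 7 of them, all but Fcgrt, passed in each. The log2 fold changes ranged from -5.71 to -4.74 for Fcgr1, -4.57 to -3.86 for Fcgr4, -4.75 to -4.13 for Fcgr2b, -4.28 to -3.72 for Fcgr3, -4.24 to -3.26 for Fcer1g, -4.37 to -3.73 for Syk and -2.35 to -1.86 for Lyn. Leaving out 1 library at a time gave 7 to 8 of the genes lower and -1.96 to -0.96 for Fcgrt (adjusted p 0.0020 to 0.10), and 1 to 2 lower genes among the other Fc receptors.

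Scaling to the T cell markers moved the median of all genes by -0.38 and gave 1093 higher and 7160 lower genes, against 3459 higher and 3898 lower with TMM and 4122 higher and 3476 lower with total counts. With that T cell scaling, higher and lower genes numbered 1 and 3 among other Fc receptors, 1 and 4 among Src and Syk family kinases, 0 and 2 among ITAM adaptors, 4 and 27 among effectors and 2 and 16 among inhibitors. With at least 50 counts in 3 libraries, which tests 3 of the other Fc receptors, 0 of them were lower.

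Fcgr4 over Fcgr3 ranged from -0.79 to 0.19 and Fcer1g over the activating receptors from -0.087 to 0.65 on the log2 scale when 1 library was left out, and the ratio of Fcer1g was -0.076 without both libraries numbered 3. Relative to the macrophage marker sum, Fcgrt ranged from -0.092 to 0.82 when 1 library was left out. With the mean of marker log2 values in place of the sum, Fcgrt was 2.17 and Lyn 1.62. The cause of these changes was not tested.

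With the replicate number as a block, 7029 genes changed and the 8 genes stayed called; same-numbered libraries deviated together for number 3 (r = 0.60 across genes) but less for numbers 1 and 2 (-0.09 and 0.15), so the numbers were not taken as pairs. Levels of Fcgr1 and Fcgr4 in FOXP3-high rest on 4 to 18 counts a library.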
